A study of Mus musculus with 2 samples.

Results

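The major urinary protein (Mup) cluster on mouse chromosome 4 was examined in Foxa2 HiChIP of liver, an assay that ligates DNA ends lying close together and recovers those bound by a chosen protein, here the forkhead factor Foxa2. The rule took 8 Mup genes (Mup1, Mup2, Mup3, Mup4, Mup5, Mup7, Mup20 and Mup21) out of 21523 protein-coding loci, and all 8 were found in the gene table. The cluster was every 50 kb bin from the first to the last bin overlapping one of them, 45 of 54521 bins in the table, at 59950001 to 62200000 of chromosome 4 in mm10. It spans 2250 kb and holds 22 annotated Mup genes and 22 Mup pseudogenes, of which the 8 genes named above are described singly. These 8 overlap 11 bins, and Mup20 and Mup3 share 1 of them. The 2 Mb on each side, 40 bins each, served as flanks.

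There were 2 libraries, 1 per group, both from liver of wildtype mice collected 4 h after 1 oral gavage. The vehicle group received propylene glycol with Tween 80, and the GW4064 group received GW4064, a drug that switches on FXR, the nuclear receptor for bile acids, by the same route. Age, sex and the number of mice behind each library were not given in the sources used here. Depth was 22686004 contacts (vehicle) and 29003442 contacts (GW4064). Since each group had 1 library, the treatment could not be tested, so each difference compares these libraries and each 95% interval covers counting error only. A contact map does not measure expression, so the tissue label could not be checked against marker genes.

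Major urinary proteins are small lipocalins, barrel-shaped carriers that hold volatile pheromones. Hepatocytes secrete the liver forms into blood, from which they pass into urine, and growth hormone acting through STAT5 drives their synthesis more strongly in males. The genes arose by repeated duplication, and the copies in the middle of the cluster are close to identical, so that a short read from one copy can match several.

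The 250 bases before the listed start of 5 members, taken from RefSeq (GRCm38.p6, the same primary assembly as mm10), show how far the copies repeat each other. Each is printed 5′ to 3′, and all 5 lie on the minus strand. The listed start of Mup2 lies 121 bases inside its annotated span, so only the 129 bases outside that span are printed. Capitals mark the longest uninterrupted run that is shared with another Mup gene of the table.
Mup7: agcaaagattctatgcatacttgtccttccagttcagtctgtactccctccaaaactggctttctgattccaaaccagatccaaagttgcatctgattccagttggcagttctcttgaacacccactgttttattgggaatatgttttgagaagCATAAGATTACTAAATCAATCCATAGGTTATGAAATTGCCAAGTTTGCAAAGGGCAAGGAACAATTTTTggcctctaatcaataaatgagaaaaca
Mup2: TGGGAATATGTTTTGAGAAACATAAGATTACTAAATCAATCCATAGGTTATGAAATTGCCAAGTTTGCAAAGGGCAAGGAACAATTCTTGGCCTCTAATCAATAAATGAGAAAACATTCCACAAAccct
Mup4: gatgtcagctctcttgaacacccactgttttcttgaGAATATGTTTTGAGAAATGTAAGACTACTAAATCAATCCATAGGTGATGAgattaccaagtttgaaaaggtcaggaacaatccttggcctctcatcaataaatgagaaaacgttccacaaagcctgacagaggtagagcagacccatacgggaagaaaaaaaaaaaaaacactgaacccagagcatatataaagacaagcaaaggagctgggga
Mup3: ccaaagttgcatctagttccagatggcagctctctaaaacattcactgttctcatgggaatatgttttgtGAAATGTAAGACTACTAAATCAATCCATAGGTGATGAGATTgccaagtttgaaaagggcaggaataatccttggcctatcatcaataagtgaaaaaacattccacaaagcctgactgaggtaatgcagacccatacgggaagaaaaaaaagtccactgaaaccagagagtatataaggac
Mup21: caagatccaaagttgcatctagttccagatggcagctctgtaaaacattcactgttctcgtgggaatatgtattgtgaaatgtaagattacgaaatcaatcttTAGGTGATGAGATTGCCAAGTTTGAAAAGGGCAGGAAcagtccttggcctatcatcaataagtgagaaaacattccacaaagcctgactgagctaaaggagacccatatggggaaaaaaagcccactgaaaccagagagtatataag
The windows are chr4:60070476-60070725 for Mup7, chr4:60139978-60140106 for Mup2, chr4:59960668-59960917 for Mup4, chr4:62087318-62087567 for Mup3 and chr4:62150842-62151091 for Mup21. Mup2 shared a run of 125 bases with Mup11, and Mup7 one of 69 bases with Mup14. The runs were shorter in the genes at the ends of the cluster, at 50 bases for Mup4 (with Mup6), 41 for Mup3 (with Mup4) and 37 for Mup21 (with Mup3). No window was printed for Mup1, Mup5 and Mup20. Between the 7 Mup genes with a window before the empty bins described below and the 7 after them, the longest shared run had a median of 56 bases over 49 pairs and reached 170 bases for Mup9 and Mup19.

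The full 250 bases before each listed start, for Mup2 with the 121 bases not printed here, were searched on both strands for short motifs. The TATA-type run TATATAA was found in 4 of 5 members (all but Mup7), for Mup2 within the bases not printed, against 3.26% of 27025 windows of all genes. The last bases of the Mup7 window recur among the printed bases of Mup2. The stretch of Mup7 that would match the TATATAA of Mup2 thus lies outside its window and was not searched. The run GAATATGT, noted by eye in these windows and therefore no independent finding, was in 5 of 5 members and in 0.696% of all windows. The forkhead core, searched as TGTTTAC or as TGTTTGC and in the forms of both with A in place of G at the second letter, had no match in the 5 windows, and 11.8% of all windows held one. The STAT-type palindrome TTCNNNGAA had no match either, against 7.18% of all windows. A window without these letters says nothing about binding elsewhere in the same 50 kb bin.

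The cluster held far fewer contacts per bin than the chromosome around it, and 5 of its bins held 0 contacts in both libraries. Coverage is the number of contact ends in a bin. The median cluster bin had 257 ends in vehicle and 368 in GW4064, which is 0.322 and 0.366 of the chromosome 4 median (797 and 1006). The upstream flank had a median of 803 and 948 ends, and the downstream flank 730 and 832.5. The 5 empty bins lie side by side at 60850001 to 61100000, 250 kb in which no Mup gene or pseudogene is annotated. No flank bin was empty, and 2.59% of the bins of chromosome 4 and 2.67% of all bins were empty in both libraries. Of the 81 such bins of chromosome 4, 20 lay outside the empty run at the start of the chromosome. The 5 bins of the cluster are among those 20. Bins under 10% of the chromosome median numbered 10 of 45 in vehicle and 9 in GW4064 (22.2% and 20%), against 3.67% and 3.64% of chromosome 4. Bins under 50% of that median numbered 34 and 32, against 5.37% and 9.36%.

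**Figure D1:**
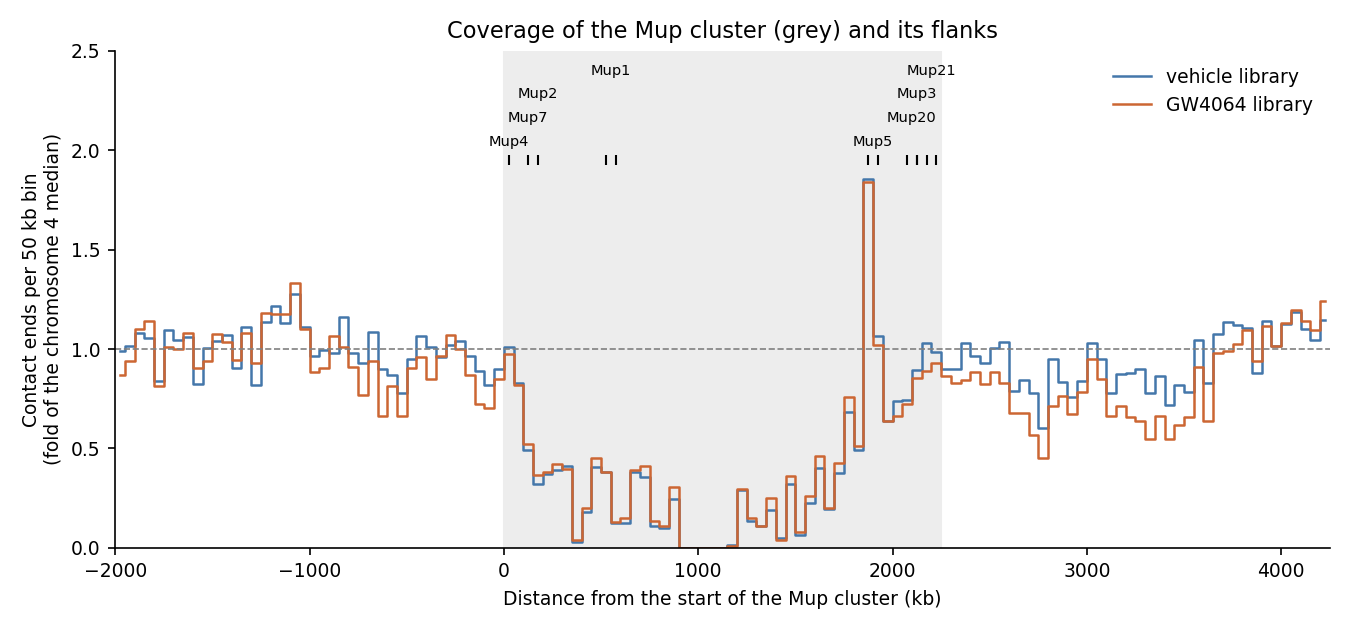
Contact ends per 50 kb bin as a fold of the chromosome 4 median (dashed line) against distance from the cluster start in kb, for the vehicle and GW4064 libraries, with the cluster in grey and ticks at the bins of the 8 genes. Both libraries drop inside the cluster, reach 0 in 5 bins near its middle and peak at 1.85-fold (vehicle) and 1.84-fold (GW4064) in the first bin of Mup5.

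Stretches of the cluster can be told apart by coverage, a division made after the values were seen. The upstream edge is 2 bins with Mup4 and Mup6, the core is 35 bins from Mup7 to Mup19, and the downstream edge is 8 bins from Mup5 to Mup21. The core had a median of 155 ends in vehicle and 253 in GW4064 (0.194 and 0.251 of the chromosome median). The downstream edge had 749.5 and 877 (0.940 and 0.872). Thus the low coverage lay in the core, and the edges were near the level of the chromosome. The 25 bins with a Mup gene had a median of 312 ends in vehicle and 427 in GW4064, the 9 bins with pseudogenes only had 232 and 299, and the 11 bins with neither had 12 and 10. Empty bins account for 5 of those 11. The lowest bin that was not empty, at 61100001, held 12 and 10 ends. Over the 40 bins with contacts the libraries followed the same profile (Pearson r 0.995, Spearman rho 0.991, across bins, which are not replicates).

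The highest bin was the first bin of Mup5, at 61800001 to 61850000, with 1478 ends in vehicle and 1849 in GW4064. Its neighbours held 392 and 515 ends before it and 851 and 1026 after it. Of the bins of chromosome 4, 0.287% in vehicle and 0.319% in GW4064 had as many. Contacts that begin and end within the bin numbered 305 and 406, or 2.72 and 2.65 times the chromosome median. Contacts with other chromosomes were 1.80 and 2.03 times their median, and contacts over 1 Mb away on the chromosome 1.73 and 1.91 times. Contacts up to 1 Mb away were 1.74 times the median in vehicle and 1.37 times in GW4064.

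The members in the core were the least covered. Mup7 (60066469 to 60070475), a liver Mup of the central group, held 393 ends in vehicle and 523 in GW4064. Mup2 (60135913 to 60139977) held 257 and 368. Mup1 (60498012 to 60501960) held 402 and 511 over 2 bins, of which the bin at 60450001 had 303 and 382 and the next 99 and 129. All 3 lay at or below 0.520 of the chromosome median per bin in both libraries.

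The members at the edges were covered more deeply. Mup4 (59956804 to 59960667), known from glands of the nose and eye, held 806 and 980 ends. Mup5 (61831319 to 61858043), known from salivary and lacrimal glands, held 2329 and 2875 over 2 bins. Mup20 (62011337 to 62054143), which encodes the male pheromone darcin, held 1305 and 1586 over 2 bins. Mup3 (62083476 to 62087317), a liver form, held 714 and 860 in a bin it shares with Mup20. Mup21 (62147832 to 62150841) held 1608 and 1831 over 2 bins. Per bin these 5 ranged from 0.788 to 1.46 of the chromosome median.

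Contacts between different bins of the cluster were fewer than its distances alone would give, and more numerous than expected once the low coverage of the bins was allowed for. The 990 bin pairs held 1654 contacts in vehicle and 2196 in GW4064, 0.428 and 0.401 of the number expected from distance. Expected values were then also scaled by the contacts of both bins with other chromosomes, a count that does not include the contacts counted here. By that measure observed over expected was 1.98 in vehicle (exact Poisson interval 1.88 to 2.08) and 1.82 in GW4064 (1.75 to 1.90). Inside the flanks the same measure gave 0.997 and 1.05 upstream and 0.994 and 1.04 downstream. Between the cluster and its flanks it gave 0.820 and 0.737 upstream and 0.786 and 0.801 downstream.

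**Figure D2:**
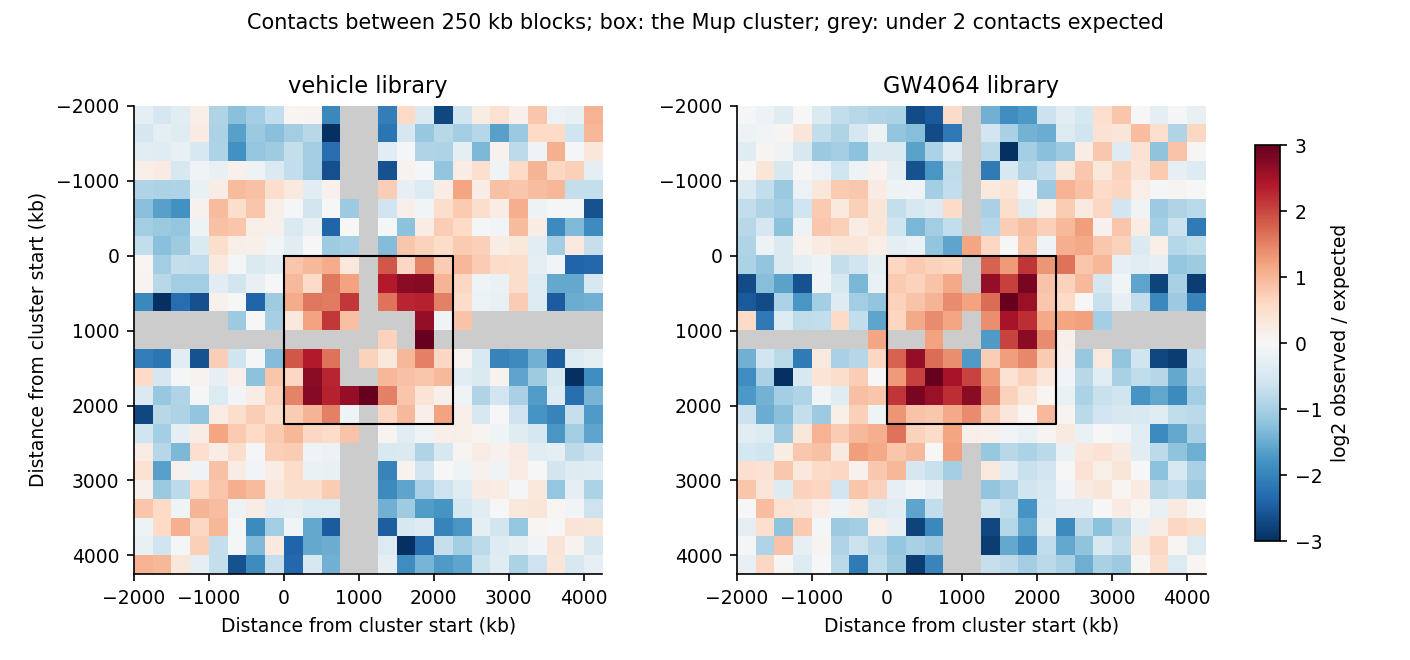
Observed over expected contacts (log2 colour scale, expected from distance and from contacts with other chromosomes) between 250 kb blocks, with both axes in kb from the cluster start, a box around the cluster and grey for blocks with under 2 contacts expected. Red fills most of the box in both libraries. In vehicle the deepest pair joins 1000 to 1250 kb with 1750 to 2000 kb (14.7 times expected), where the filled bins of both blocks lie after the empty bins. In GW4064 it joins 500 to 750 kb with 1500 to 1750 kb (8.53 times), on the 2 sides of the empty bins. Contacts of the cluster with its flanks total 0.820 (upstream) and 0.786 (downstream) of the expected number in vehicle.

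The core gave the highest values. Inside the core observed over expected was 2.64 in vehicle (2.42 to 2.87) and 2.12 in GW4064 (1.97 to 2.27). The part of the core before the empty bins and the part after them shared 132 contacts in vehicle and 211 in GW4064 over 224 bin pairs, 5.22 times (4.37 to 6.19) and 4.86 times (4.22 to 5.56) the expected number. Inside the downstream edge the values were 1.59 (1.46 to 1.73) and 1.40 (1.29 to 1.52). The upstream and the downstream edge, at opposite ends of the cluster, shared 18 contacts in vehicle and 41 in GW4064, which is 1.82 (1.08 to 2.88) and 3.72 (2.67 to 5.05) times the expected number. Scaled to equal totals, the ratio of GW4064 to vehicle for those contacts had a log2 of 0.69 and an interval of -0.14 to 1.58 that includes 0. At 250 kb resolution, 28 of 36 block pairs had at least 2 contacts expected in both libraries, and 27 of the 28 exceeded 1 in each. The highest pair by the lower of its 2 values joined 250 to 500 kb with 1750 to 2000 kb from the cluster start, with 44 contacts in vehicle (6.61 times the expected number) and 67 in GW4064 (7.16 times). The second of these blocks holds Mup5 and the high bin described above. In vehicle alone the highest pair joined 1000 to 1250 kb with 1750 to 2000 kb, with 44 contacts (14.7 times). That pair had 33 contacts in GW4064 (6.50 times), and the filled bins of both its blocks lie after the empty bins.

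The genes on the 2 sides of the empty bins include the copies that share the long runs of sequence given above. The sources used here do not say how reads that match several copies were assigned, and the part of such reads in these contacts was not tested.

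**Figure D3:**
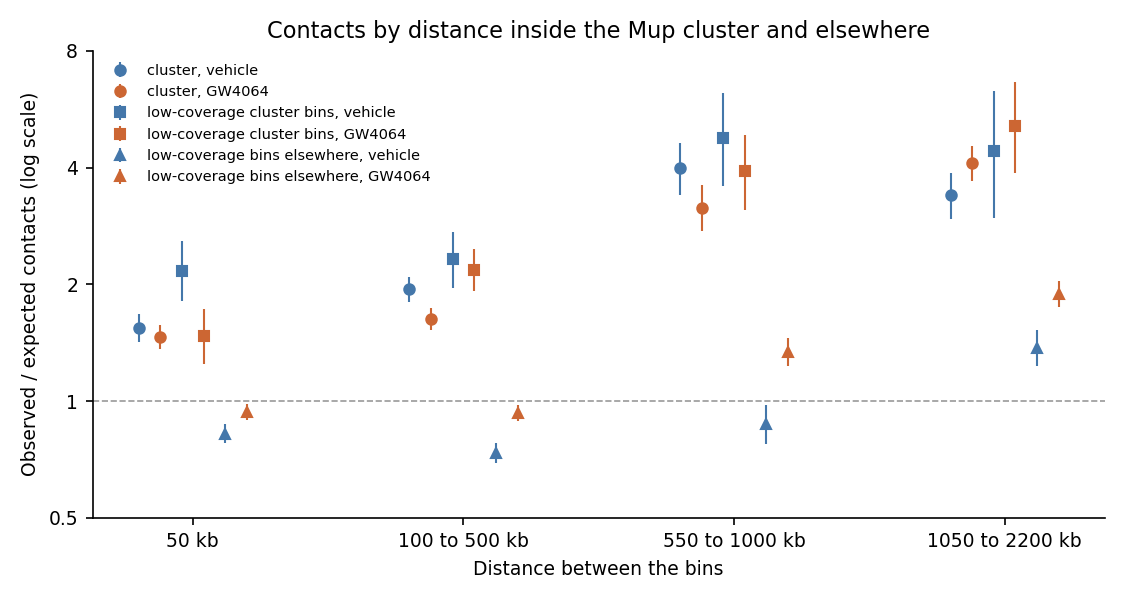
Observed over expected contacts (log axis, 95% Poisson intervals) by distance between bins, for the whole cluster, its low-coverage bins and low-coverage bins elsewhere in the genome, with vehicle in blue and GW4064 in orange. Expected values come from distance and from contacts with other chromosomes. The cluster lies above low-coverage bins elsewhere at all 4 distances in both libraries, and its values are higher from 550 kb on than below.

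With contacts with other chromosomes in the expected value, low-coverage bins elsewhere in the genome had lower values than the cluster. Bins under 50% of their chromosome median in both libraries numbered 27 in the cluster and 1060 elsewhere. Over pairs 50 to 2200 kb apart, the 27 cluster bins had 2.56 (2.30 to 2.84) in vehicle and 2.17 (1.99 to 2.37) in GW4064, and the bins elsewhere had 0.835 (0.804 to 0.866) and 1.04 (1.01 to 1.07). Inside the whole cluster the value was 1.55 and 1.46 at 50 kb and 1.94 and 1.62 at 100 to 500 kb. It was 3.98 and 3.15 at 550 to 1000 kb and 3.39 and 4.10 at 1050 to 2200 kb. The low-coverage bins elsewhere reached 1.37 and 1.89 at the longest of these distances. Scaled by all contacts of both bins instead, over 50 to 2200 kb the bins elsewhere had 1.49 and 1.70. The 27 cluster bins then had 3.47 and 3.21. At 1050 to 2200 kb the bins elsewhere reached 2.64 and 3.26 on that scale, beside 4.02 and 5.08 for the whole cluster. The part of low coverage in these values was not tested. Other clusters of liver genes, all shorter, gave 1.22 and 1.30 for Serpina (protease inhibitors), 1.33 and 1.01 for Cyp2c (cytochromes P450) and 2.53 and 1.97 for Ugt2 (glucuronosyltransferases), so values near those of the Mup cluster were not limited to it.

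Seen from single members, contacts with the rest of the cluster were above the expected number for 7 of 8 genes in both libraries with an interval above 1, and for Mup4 in GW4064 only. Mup1 had 80 contacts in vehicle (2.60 times expected, 2.06 to 3.24) and 129 in GW4064 (2.47 times, 2.06 to 2.94). Mup2 had 67 (2.60 times) and 93 (2.04 times), and Mup7 had 98 (2.38 times) and 111 (1.59 times). At the other end of the cluster, Mup5 had 404 (1.86 times) and 520 (1.71 times), Mup20 had 265 (2.01 times) and 279 (1.51 times), Mup3 had 174 (2.00 times) and 192 (1.51 times), and Mup21 had 216 (1.77 times) and 238 (1.49 times). Mup4 had 84 (1.19 times, 0.951 to 1.48) and 114 (1.33 times, 1.10 to 1.60). Pairs of members were mostly too sparse to read singly: of 28 pairs, 1 shares a bin, 6 had 0 contacts in vehicle and 2 in GW4064, and the largest count was 104 and 109 for Mup20 with Mup21, which lie in neighbouring bins.

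In the GW4064 library the long-range contacts of the cluster were higher and its local contacts lower, and coverage was higher in the core and lower in the downstream edge. Ratios here are GW4064 over vehicle, scaled so that the class has equal totals in both libraries. All contact ends of the cluster numbered 14156 in vehicle and 18164 in GW4064, a log2 ratio of 0.02 with an interval of -0.01 to 0.05. That total joins a core at 0.13 (0.08 to 0.17), an upstream edge at -0.04 (-0.14 to 0.06) and a downstream edge at -0.07 (-0.12 to -0.03). Local contacts, those with other bins up to 1 Mb away, gave 3507 and 4387 ends and a log2 ratio of -0.19 (-0.25 to -0.12). The downstream flank had a local ratio of -0.20 (-0.25 to -0.16), and the cluster minus that flank was 0.02 (-0.06 to 0.10). The upstream flank was at -0.02 (-0.06 to 0.02), and the cluster minus it was -0.17 (-0.25 to -0.09). The cluster minus the rest of chromosome 4 was -0.18 (-0.25 to -0.12). Local ratios of other liver gene clusters were -0.44 (Serpina), -0.13 (Cyp2c) and -0.01 (Ugt2). Scaled to equal totals of all contacts instead, the local ratio of the cluster was -0.031 (-0.096 to 0.033), an interval that includes 0, while the long-range ratio below was 0.18 (0.12 to 0.23). Long-range contacts, those over 1 Mb away on the same chromosome, gave 4723 and 6820 ends and 0.20 (0.14 to 0.25). Contacts with other chromosomes gave 3884 and 4196 ends and 0.04 (-0.02 to 0.10). Ends were treated as independent, although a contact inside the cluster adds 2 of them.

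**Figure D4:**
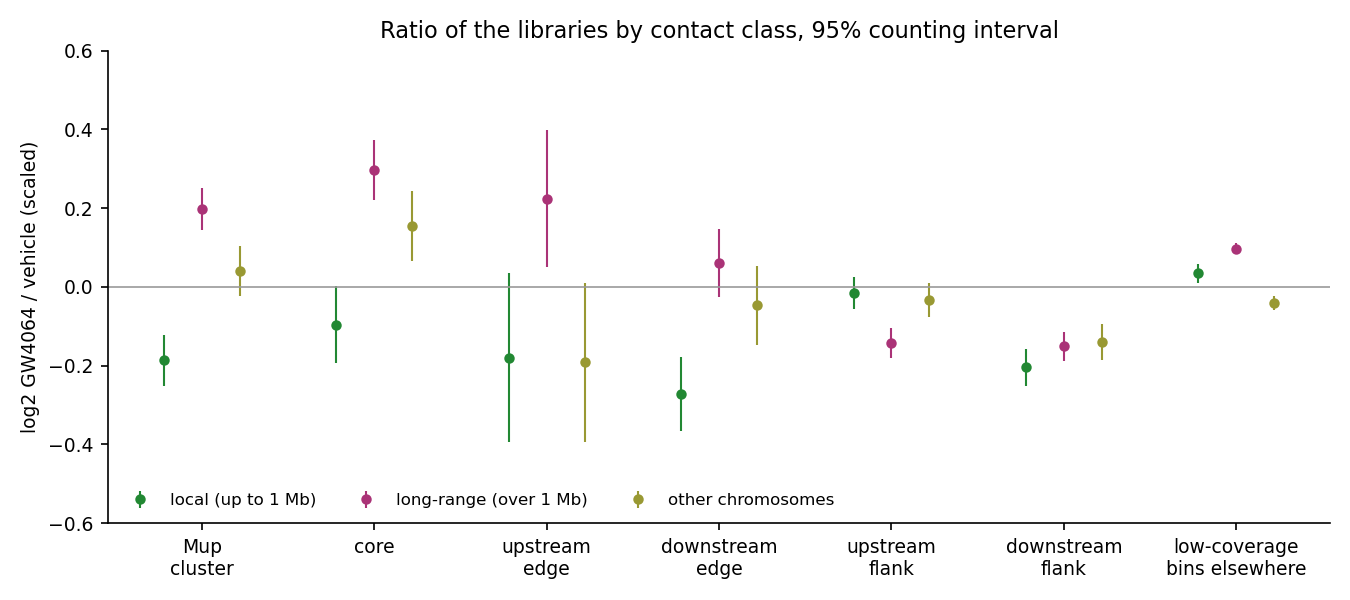
Log2 ratio of GW4064 to vehicle with 95% counting intervals for local contacts, long-range contacts and contacts with other chromosomes, in the cluster, its core and edges, the flanks, and low-coverage bins elsewhere. Long-range contacts lie above 0 in the cluster (0.20) and its core (0.30) and below 0 in both flanks (-0.14 and -0.15).

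Over all distances beyond 1 Mb, the flanks had long-range ratios below 0. The upstream flank had a log2 ratio of -0.14 (-0.18 to -0.10) and the downstream flank -0.15 (-0.19 to -0.11). The cluster minus the upstream flank was 0.34 (interval 0.27 to 0.41) and minus the downstream flank 0.35 (0.28 to 0.41). The cluster minus the rest of chromosome 4 was less, at 0.21 (0.16 to 0.26). Within the cluster the core had 0.30 (0.22 to 0.37), the upstream edge 0.22 (0.05 to 0.40) and the downstream edge 0.06 (-0.03 to 0.15). The core minus both edges was 0.20 (0.10 to 0.31) for long-range contacts. It was about as much for all contacts, at 0.19 (0.13 to 0.26), for local contacts, at 0.16 (0.03 to 0.29), for contacts within a bin, at 0.20 (0.02 to 0.37), and for contacts with other chromosomes, at 0.23 (0.11 to 0.36), so this gap was not limited to long-range contacts. By distance the cluster had 0.20 (0.10 to 0.31) at 1.05 to 5 Mb, 0.29 (0.19 to 0.40) at 5.05 to 20 Mb and 0.15 (0.07 to 0.22) beyond 20 Mb. The upstream flank was at 0.01 (-0.07 to 0.09), -0.21 (-0.28 to -0.13) and -0.17 (-0.22 to -0.12) at these distances, and the downstream flank at -0.11 (-0.20 to -0.02), -0.12 (-0.19 to -0.06) and -0.17 (-0.22 to -0.12). Low-coverage bins elsewhere also lay above 0, at 0.10 (0.08 to 0.11), and the low-coverage cluster bins were at 0.28 (0.19 to 0.36). The part of coverage in the long-range difference was not tested further. The like clusters had long-range ratios of -0.23 (Serpina), -0.18 (Cyp2c) and 0.05 (Ugt2).

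Few bins passed a fixed fold. For all contacts, 34 of 45 cluster bins had the 200 contacts over both libraries that were asked for, and 0 were 1.5-fold lower or higher, against 1.3% of all bins. For local contacts, 13 of 45 bins had that number, and 0 were 1.5-fold lower or higher, against 3.19% and 0.226%. For long-range contacts, 26 of 45 bins had it, 1 was 1.5-fold higher and 0 were lower, against 0.0739% and 2.12%. At a lower threshold, a ratio of 5 to 4, 6 of the 26 were higher and 0 lower, against 3.05% and 12.3% of all bins. All 6 lay in the core, where counts are small. The 1.5-fold bin, at 61400001, had 81 long-range ends in vehicle and 154 in GW4064, beside chromosome 4 medians of 291 and 357. The shares of all bins thus come mostly from bins with more contacts. Of the 26 bins, 24 had a ratio above 1, whereas 33 of 40 bins were below 1 in each flank. Of the 50047 bins of all chromosomes with at least 200 long-range contacts, 24676 were above 1 and 25371 below.

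**Figure D5:**
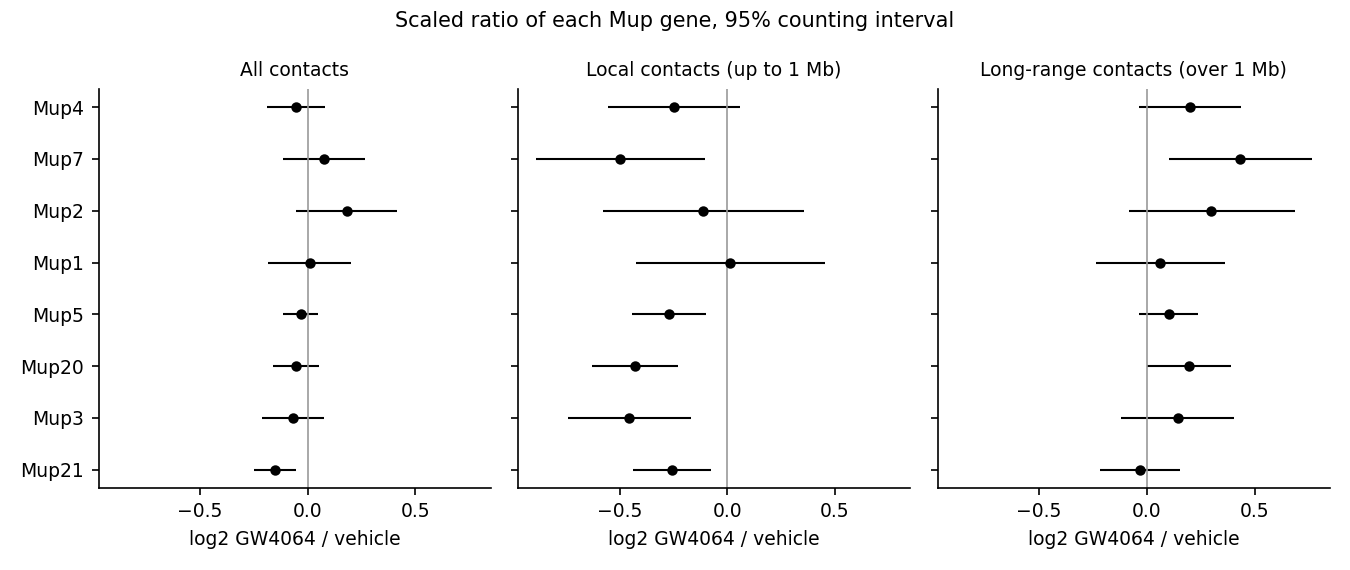
Log2 ratio of GW4064 to vehicle with 95% counting intervals for each of the 8 Mup genes, in order along the chromosome, for all contacts, local contacts and long-range contacts. Local ratios lie between -0.50 and 0.01 and long-range ratios between -0.03 and 0.43.

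Single members followed the cluster in local contacts. The interval lay below 0 for 5 of 8 members and above 0 for none, while 41.8% of protein-coding loci with enough contacts had an interval below 0 and 5.86% above. Mup7 had 111 local contacts in vehicle and 112 in GW4064, a log2 ratio of -0.50 (-0.89 to -0.10). Mup3 had 205 and 213 and -0.45 (-0.74 to -0.17), and Mup20, in part the same bin, had 400 and 423 and -0.43 (-0.63 to -0.23). The raw counts of these genes were thus nearly level although the GW4064 library was deeper. Mup5 had 529 and 624 and -0.27 (-0.44 to -0.10), and Mup21 had 465 and 554 and -0.26 (-0.44 to -0.08). Scaled to equal totals of all contacts, the intervals of Mup20, at -0.27 (-0.47 to -0.07), and Mup3, at -0.30 (-0.58 to -0.02), stayed below 0. Those of Mup7, at -0.34 (-0.73 to 0.05), Mup5, at -0.12 (-0.29 to 0.05), and Mup21, at -0.10 (-0.28 to 0.08), then included 0. The intervals of the other 3 included 0: Mup4 had 165 and 198 (-0.25), Mup2 had 70 and 92 (-0.11) and Mup1 had 76 and 109 (0.01).

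None of the 8 was 1.5-fold lower or higher, and 6 of them had at least 200 local contacts over both libraries, all but Mup2 and Mup1. Of protein-coding loci, 11.6% were at least 1.5-fold lower in local contacts. The median of the 6 members was -0.35 and that of all loci -0.17. For all contacts, the interval of Mup21 lay below 0 at -0.15 (-0.25 to -0.05) and those of the other 7 included 0, while 58.2% of loci had an interval below 0 and 11.1% above.

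Long-range contacts of the members were mostly higher in GW4064, with wide intervals. Mup7 had 123 ends in vehicle and 209 in GW4064, a log2 ratio of 0.43 (0.10 to 0.77), and was the only member whose interval lay above 0, as it did for 6.25% of loci. No member's interval lay below 0, as it did for 45.1% of loci. Mup2 had 95 and 147 (0.30), Mup4 had 253 and 366 (0.20), Mup20 had 363 and 523 (0.20), Mup3 had 208 and 289 (0.14), Mup5 had 760 and 1026 (0.10) and Mup1 had 165 and 217 (0.06). Mup21 had 440 and 542 (-0.03). The median of the 8 was 0.17, and that of all protein-coding loci with at least 200 such contacts was -0.18.

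Contacts inside the cluster had a log2 ratio of -0.09 with an interval of -0.18 to 0.00 that includes 0. Between bins with at least 50% of the chromosome median it was -0.21 (-0.36 to -0.06), and between bins overlapping a member -0.25 (-0.45 to -0.05), both below 0. The sets share the bins of Mup4, Mup5, Mup20, Mup3 and Mup21, mostly in the downstream edge, so these values are not independent. Contacts inside the downstream edge were lower, 535 in vehicle and 608 in GW4064, at -0.31 (-0.48 to -0.14). Beside this stood -0.22 (-0.29 to -0.15) inside the adjoining downstream flank and -0.37 (-0.50 to -0.23) inside the Serpina cluster. Inside the core, 544 and 758 contacts gave -0.02 (-0.18 to 0.14). At 1050 to 2200 kb the cluster had 207 and 358 contacts and a log2 ratio of 0.29 (0.04 to 0.55), close to the 0.29 (0.10 to 0.48) of low-coverage bins elsewhere at the same distances.

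Contacts with the flanks were lower in GW4064 on both sides. With the upstream flank they numbered 562 and 658, a log2 ratio of -0.27 (-0.43 to -0.10), and with the downstream flank 589 and 740, at -0.17 (-0.33 to -0.01). Both intervals included 0 when the scale was the total of all contacts, at -0.13 (-0.29 to 0.04) upstream and -0.03 (-0.18 to 0.13) downstream. Scaled at the same distance, the ratio was -0.22 (-0.38 to -0.05) upstream and -0.14 (-0.30 to 0.02) downstream. The flanks contacted each other across the cluster 561 times in vehicle and 652 times in GW4064, 1.18 and 1.23 times the expected number. Their log2 ratio was -0.28 (-0.45 to -0.11) on the scale of contacts up to 2 Mb apart, although these pairs lie farther apart than that. Scaled at the same distance it was -0.12 (-0.29 to 0.04), an interval that includes 0.

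Slc46a2, the first protein-coding gene upstream, had 89 contacts with the cluster in vehicle and 114 in GW4064, of which 38 and 52 were with the bin of Mup4. Zfp37, a zinc finger gene, overlaps the last cluster bin, and its bin outside the cluster had 135 and 165 contacts with the cluster. The downstream flank holds other lipocalins. Orm1, Orm2 and Orm3 encode orosomucoids, acute phase carriers of plasma, and Ambp encodes the precursor of alpha-1-microglobulin. Their own local contacts had log2 ratios of -0.73 (-1.05 to -0.41) for Orm1, -0.70 (-1.09 to -0.31) for Orm2 and Orm3, which share a bin, and -0.46 (-0.67 to -0.24) for Ambp. With the Mup cluster, 950 to 1200 kb away, they had few contacts: 6 and 8 for Orm1, 1 and 7 for the bin of Orm2 and Orm3, and 14 and 25 for Ambp. Expected values here were scaled by distance and by all contacts of both bins. Observed over expected was 0.56 and 0.76 for Orm1, 0.12 and 0.83 for Orm2 and Orm3, and 0.57 and 0.99 for Ambp. It was 1.51 and 1.52 for Slc46a2 and 1.82 and 1.75 for the bin of Zfp37 outside the cluster.

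Of 19 lipocalin genes outside the Mup family, which lie in 15 distinct sets of bins, 6 were at least 1.5-fold lower in local contacts and 0 higher, with a median log2 ratio of -0.47. Orm2 and Orm3, both among the 6, share a bin and so have the same counts. The same holds for Lcn6, Lcn8 and Lcn10, whose value is the median. Of 16 regulators of Mup expression, among them Ghr, Stat5b, Hnf4a and Foxa2, 5 were lower and 0 higher, with a median of -0.42. The 6 Mup members with enough contacts had 0 and 0, and all loci had 11.6% lower and 0.0634% higher.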

How the data were processed

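Foxa2 HiChIP of mouse liver was measured in 1 vehicle and 1 GW4064 library. Per the labels, the Arima-HiC+ kit was used for ligation and a rabbit antiserum to Foxa2 for precipitation. Per the submitters' processing notes, HiC-Pro and Bowtie2 2.2.9 were used on mm10. Filters on reads, the treatment of multi-mapping reads and of duplicates, and any pooling of mice were not given in the sources used here. Raw counts of contacts per pair of 50 kb bins, without normalization, are what the deposited matrices hold, and the deposited bin tables hold the bin index, of no other unit.

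Chromosomes 1 to 19 and X (52685 bins) were used. Coverage counts each contact at both bin ends. Each ratio was scaled so that its contact class had equal totals, with exact conditional binomial 95% intervals. Contacts inside the cluster and with the flanks were scaled to cis contacts up to 2 Mb apart. Expected contacts are the mean per bin pair at the same distance, and, chosen after the data were seen, scaled by the contacts of both bins with other chromosomes, with exact Poisson intervals. Scaling by all contacts of both bins was kept as an alternative. Long-range contacts, the stretches of the cluster and low-coverage bins were also chosen after the data were seen.

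Gene positions are those of RefSeq on GRCm38.p6, and a gene stands for all bins it overlaps. The named genes are the 8 members, the next protein-coding gene on each side, listed genes in the flanks, and the highest and lowest cluster bin. Members and lists were chosen with earlier results of these data known. Alternatives covered scaling, windows, minimum contacts, thresholds and the bins used. Scripts ran in Python 3.11.15 with pandas 2.3.3, scipy 1.17.1, matplotlib 3.10.9 and numpy 2.4.6.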

Additional observations from a re-analysis of the deposited data

How the results depend on the processing

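Of 44 alternatives for cluster values and counts, 24 stayed within the counting interval of the main value or within 1.5 times its count, and all 40 run for single members stayed within their wide counting intervals. The local intervals of Mup7, Mup5 and Mup21 nevertheless went from below 0 to including 0 with totals of all contacts as the scale. With totals of all contacts as the scale, the log2 ratio of local contacts moved from -0.19 to -0.031 and that of contacts inside the cluster from -0.09 to 0.055. The 11 bins with at least 50% of the chromosome median gave -0.053 (-0.09 to -0.01) for coverage, -0.25 for local contacts, 0.11 for long-range contacts and -0.21 (-0.36 to -0.06) inside the cluster. Bins overlapping a member gave -0.049 (-0.094 to -0.0031), -0.29, 0.13 and -0.25 (-0.45 to -0.05). The intervals for coverage and inside the cluster, which included 0 over all bins, lay below 0 in both of these sets. The sets share most of their bins, mainly those of the downstream edge, so they are not independent. Coverage scaled to the chromosome gave 0.032 with an interval just above 0. The log2 ratios of coverage and of contacts inside the cluster thus changed sign under some choices, and those of local and long-range contacts kept theirs. The log2 ratios of contacts with the flanks stayed below 0 in each alternative run. Their intervals included 0 on both sides with totals of all contacts as the scale, and downstream when scaled at the same distance.

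Observed over expected inside the cluster was 0.428 and 0.401 by distance alone, 2.19 and 2.11 with the coverage of both bins, and 1.98 and 1.82 with their contacts with other chromosomes. With the coverage of both bins the like clusters gave 1.64 and 1.97 (Serpina), 1.53 and 1.49 (Cyp2c) and 1.59 and 1.41 (Ugt2). Without a minimum, 1 bin passed 1.5-fold for all contacts and 2 for local contacts. With a threshold ratio of 5 to 4 these counts were 1 and 5. Bins under 50% of the median numbered 34 and 32, and those under 10% 10 and 9. No paired analysis was possible because each group has 1 library, and no replicate could be left out. Counts of a few contacts per bin pair limit what can be read from single pairs, and empty bins cannot be told from bins whose reads were not assigned.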
